A study of Mus musculus with 6 samples.

Results

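The exocrine pancreas makes its digestive enzymes in acinar cells, and 9 genes of that programme were followed in dorsal pancreata of mouse embryos at E13.5. They are 7 enzymes or secreted proteins (Cpa1, Cela1, Ctrb1, Cel, Clps, Pnliprp1 and Reg1) and 2 transcription factors (Rbpjl and Bhlha15). All 9 were found by gene symbol among the 24389 Ensembl gene identifiers of the deposited files, and all 9 passed the filter on low values. The RNA came from embryos lacking Bicc1 (KO, 3 libraries) and from wild-type embryos (WT, 3 libraries), all at E13.5 and on a mixed C57BL/6 and ICR background. The product of Bicc1, Bicaudal C1, binds RNA. The labels give neither the KO allele nor whether a library came from 1 embryo or from a pool, so the spread between libraries may be partly technical, and the p-values measure that spread only.

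In the embryonic pancreas, acinar cells arise from the tips of the branching epithelium. Tip cells contain the carboxypeptidase Cpa1 and the factor Ptf1a while they are still multipotent, and become committed to the acinar fate later. Ptf1a works in a complex called PTF1, with a common bHLH partner such as the products of Tcf3 or Tcf12 and with either Rbpj or, in acinar cells, its pancreas-restricted relative Rbpjl. The complex binds an E-box next to an RBPJ box in the promoters of enzyme genes. Bhlha15, also called Mist1, is a bHLH factor that organises the secretory apparatus of mature acinar cells.

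The files hold an expression value for each gene in a unit that their headers do not state, with a floor of 0.01. The values sum to between 674295 and 716255 per library and are not read totals, so the depth is unknown. Bicc1 itself had values of 3.96, 4.91 and 4.48 in KO 1, KO 2 and KO 3, against 19.7, 19.5 and 18.2 in WT 1, WT 2 and WT 3, so each library matched its label. Markers of the pancreatic epithelium were present in every library, with Sox9 at 42.3 to 57.3 in KO and 54.8 to 60.2 in WT libraries, and Onecut1 at 18.9 to 36 in KO and 18.9 to 27.8 in WT libraries. The largest contrast among the libraries, the first principal component with 57.3% of the variance, did not follow genotype. It set KO 1, KO 2 and WT 3 against KO 3, WT 1 and WT 2 and moved with the GC content of genes, with Spearman's rho across genes of 0.503, 0.615 and 0.405 in the first 3 libraries and of -0.186, -0.56 and -0.657 in the others.

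The 9 acinar genes differed widely in level at E13.5. All libraries were of this stage, so the levels do not show how far each gene had advanced. Cpa1, Pnliprp1, Clps and Ctrb1 ranked among the most highly valued genes of the tissue, Cel and Cela1 were intermediate, and Bhlha15, Reg1 and Rbpjl were lower. Over the 6 libraries the mean value was 251 for Cpa1, 103 for Pnliprp1, 99.5 for Clps and 86.7 for Ctrb1. It was 27.3 for Cel, 17.1 for Cela1, 9.16 for Bhlha15, 5.25 for Reg1 and 1.05 for Rbpjl. The values are treated here as approximately per length, because they do not increase with transcript length across genes (Spearman's rho -0.097 over 13385 genes). In this order the ranges over libraries did not overlap between Cpa1 and Pnliprp1, between Ctrb1 and Cel, or between Reg1 and Rbpjl. All other neighbours in the order had overlapping ranges. In each library, between 97.8% and 98.4% of all genes in the file had a lower value than Cpa1. For Rbpjl that share was between 36.9% and 49.6%.

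Cpa1 (ENSMUSG00000054446, chromosome 6) encodes a zymogen of a carboxypeptidase and marks tip cells. Its value was 284, 304 and 211 in KO 1, KO 2 and KO 3, against 240, 193 and 273 in WT 1, WT 2 and WT 3. The groups overlapped, and KO 3 and WT 2 were the low libraries. Its SD was 18.3% of the mean in KO and 17.0% in WT (n = 3 each). Its highest value was 1.57 times its lowest, the smallest such ratio of the 9 genes, which reached 3.95 in Ctrb1.

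The other protease zymogens varied more between libraries of one genotype. Ctrb1 (ENSMUSG00000031957, chromosome 8), which encodes chymotrypsinogen B1, had values of 62.8, 184.9 and 51.4 in KO 1, KO 2 and KO 3, against 90.2, 46.8 and 84.4 in WT 1, WT 2 and WT 3. KO 2 stood at 3.24 times the mean of the other KO libraries, above every other library. Cela1 (ENSMUSG00000023031, chromosome 15), which encodes an elastase, had values of 12.8, 23.6 and 14.2 in the KO libraries, against 25.2, 16 and 11 in the WT libraries. Here KO 2 and WT 1 were both high, and the groups overlapped.

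Lipid-digesting enzymes and their cofactor showed the same pair of high libraries. Cel (ENSMUSG00000026818, chromosome 2), the bile salt-dependent carboxyl ester lipase, had values of 18.2, 41.3 and 19.5 in KO 1, KO 2 and KO 3, against 39.0, 21.5 and 24.2 in WT 1, WT 2 and WT 3. Clps (ENSMUSG00000024225, chromosome 17) encodes colipase, the cofactor of pancreatic lipase, and had values of 74.1, 170.7 and 81.7 in the KO libraries, against 137.2, 67.9 and 65.1 in the WT libraries. In both genes KO 2 was highest and WT 1 next, with the remaining libraries of both genotypes close together. Pnliprp1 (ENSMUSG00000042179, chromosome 19), a relative of pancreatic lipase, had values of 58.4, 150 and 67 in the KO libraries, against 187.4, 90.8 and 63.2 in the WT libraries. WT 1 was highest and KO 2 next.

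Reg1 (ENSMUSG00000059654, chromosome 6), a small secreted lectin-like protein of acinar cells, was the only one of the 9 genes whose groups did not overlap. Its value was 4.44, 4.76 and 4.2 in KO 1, KO 2 and KO 3, against 7.59, 5.48 and 5.03 in WT 1, WT 2 and WT 3. Reg1 averaged 4.47 ± 0.28 in KO and 6.03 ± 1.37 in WT libraries (SD, n = 3 each), a KO level 74.1% as high. Among the 13911 genes tested, 8.77% had their groups apart with KO lower, 7.67% with KO higher and 16.4% in either direction. Without WT 1, the library with the highest value, the log2 change of Reg1 was -0.19 in place of -0.35.

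Among the factors, Rbpjl (ENSMUSG00000017007, chromosome 2) had values of 0.689, 2.05 and 0.54 in KO 1, KO 2 and KO 3, against 1.31, 0.803 and 0.921 in WT 1, WT 2 and WT 3. KO 2 was 3.33 times the mean of the other KO libraries. Bhlha15 (ENSMUSG00000052271, chromosome 5) had values of 7.69, 14.6 and 6.37 in the KO libraries, against 10.4, 7.43 and 8.55 in the WT libraries. In both factors KO 2 was highest and WT 1 next, as in Ctrb1, Cel and Clps. Matn4, on the other strand, covers 2.6% of the exonic bases of Rbpjl in the GRCm38 annotation, and the kit used does not mark strand. None of the other 8 genes overlapped an exon of another gene there.

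**Figure D1:**
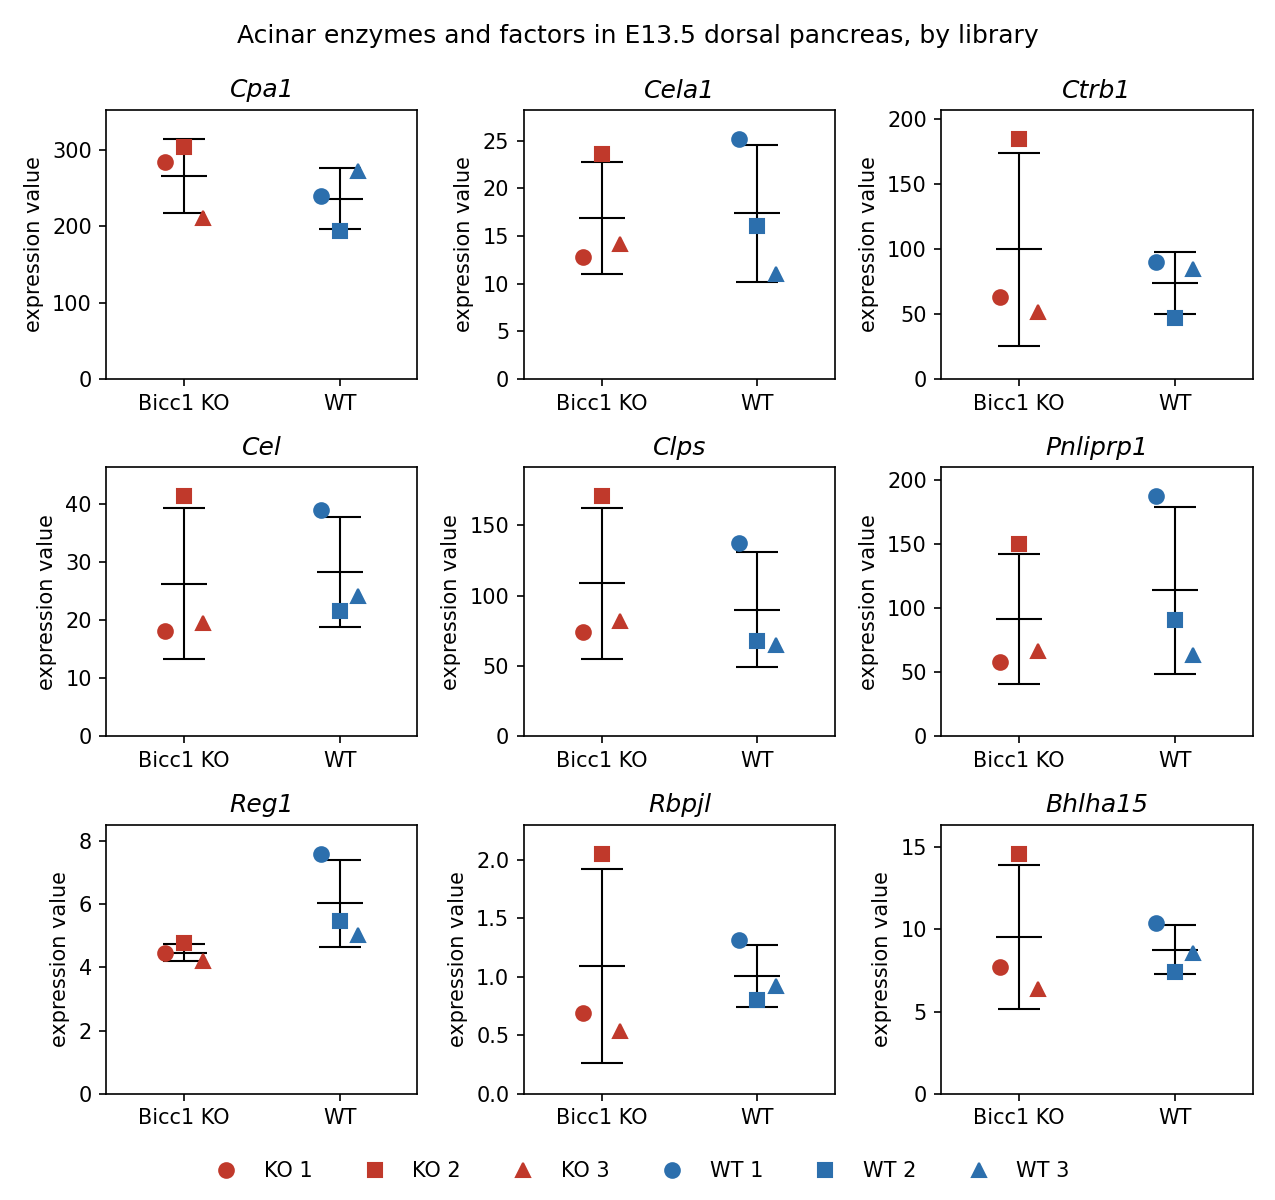
Expression value (unit not stated, axis from 0) of the 9 acinar genes in each Bicc1 KO (red) and WT (blue) library, with symbols for the library number and black bars for the mean and SD (n = 3 each). KO 2 and WT 1 are the highest pair in 7 of the panels, and Reg1 is the panel in which the groups do not overlap.

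None of the 9 genes differed between KO and WT after adjustment over all genes tested. In limma, fitted over all 13911 genes with Benjamini-Hochberg adjustment, 0 of 9 passed an adjusted p of 0.05, where 0.0144% of all genes tested passed (2 genes, both lower in KO). At an unadjusted p of 0.05, 1 of the 9 passed (Reg1, lower in KO), where 10.3% of all genes tested did in either direction, 4.36% as lower and 5.89% as higher in KO. Log2 changes are those of value + 1, KO minus WT, and understate the change of low genes such as Rbpjl. The change of Reg1 was -0.35 (SE 0.136, 95% interval -0.66 to -0.03), with an adjusted p of 0.469 in limma. The change of Cpa1 was 0.17 (SE 0.169, 95% interval -0.22 to 0.57), with an adjusted p of 0.648.

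For the other 7 genes the intervals reached well to both sides of 0. The 95% interval in limma ran from -0.85 to 1.35 for Ctrb1, from -0.74 to 0.71 for Cela1, from -0.92 to 0.62 for Cel, from -0.63 to 1.14 for Clps and from -1.35 to 0.78 for Pnliprp1. It ran from -0.59 to 0.58 for Rbpjl and from -0.57 to 0.66 for Bhlha15. Their adjusted p lay between 0.769 and 0.994 in limma. A rise of about 1 log2 unit in Ctrb1 or Clps, or a fall of about 1 in Pnliprp1, therefore lay within what these libraries allow. Of the 9 log2 changes, 4 were above 0 and 5 below, with a median of -0.0043 beside 0.014 over all genes tested.

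The signs of these changes depended on which libraries were included. Without KO 2, 8 of the 9 genes had a lower mean in KO (the exception was Cpa1), and the median change was -0.31. Without WT 1, 8 of 9 had a higher mean in KO (the exception was Reg1), and the median was 0.15. Without both, 3 of 9 were higher and 6 lower, with a median of -0.16. Without KO 1 and without KO 3, 7 of 9 were higher and 2 lower each time, without WT 2 there were 2 higher and 7 lower, and without WT 3 there were 4 higher and 5 lower, as over all libraries. The change of Ctrb1 was -0.32 without KO 2 and that of Pnliprp1 was 0.14 without WT 1, each with a sign opposite to that over all libraries. With any library left out, 0 of 9 passed limma.

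**Figure D2:**
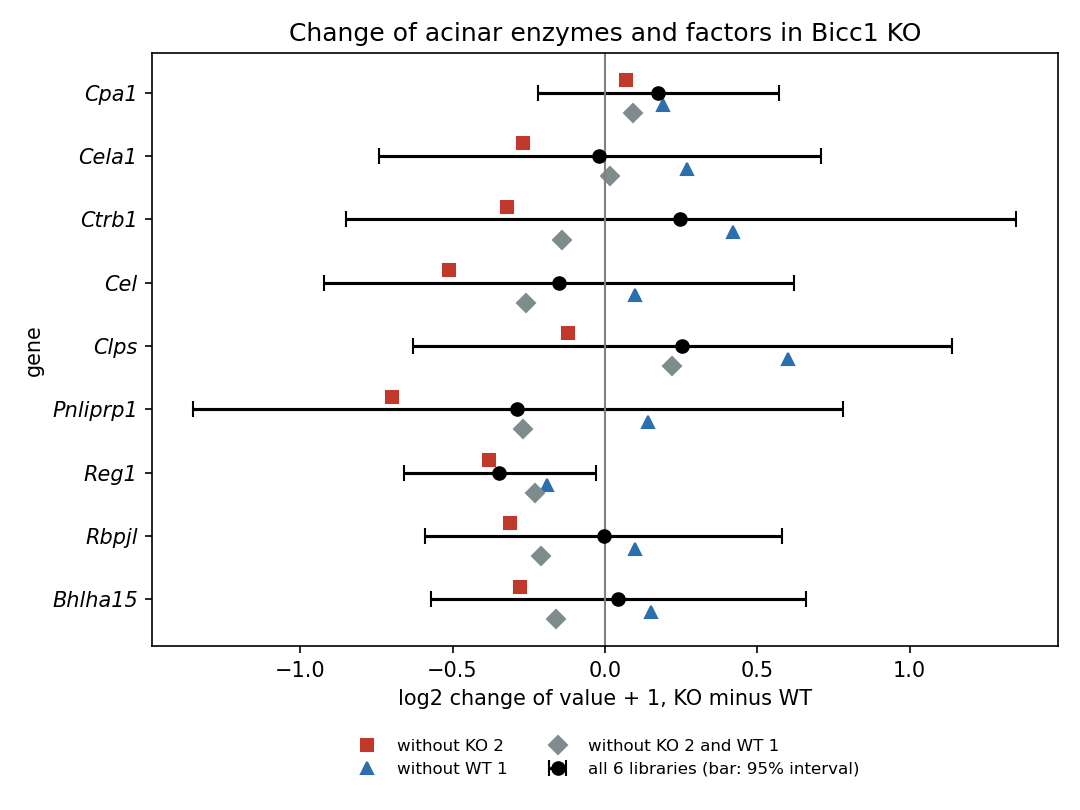
Log2 change of value + 1, KO minus WT, for each of the 9 genes over all 6 libraries (black, bar: 95% interval of limma) and without KO 2, without WT 1 or without both. Without KO 2 all points except Cpa1 lie below 0, and without WT 1 all except Reg1 lie above 0.

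The direction also split when libraries were compared only within a side of the first component. For KO 1 and KO 2 against WT 3, 8 of the 9 genes were higher in KO, with log2 differences from -0.11 for Reg1 to 0.78 for Clps and a median of 0.28. For KO 3 against WT 1 and WT 2, all 9 were lower, from -0.95 for Pnliprp1 to -0.03 for Cpa1, with a median of -0.41. Over all genes tested, 58.9% were higher in KO on the first side and 46.9% lower on the second, with medians of 0.03 and 0.01. The first side holds KO 2 and the second WT 1. Reg1 was lower in KO on both sides, by -0.11 and -0.52. The difference between the sides was not tested.

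KO 2 and WT 1 stood apart as the 2 libraries richest in acinar enzymes, 1 of each genotype. This pattern was chosen after the values were seen. KO 2 was the highest KO library in all 9 genes and WT 1 the highest WT library in 8 of 9, the exception being Cpa1, beside 45.6% and 29.8% of all genes tested. The 2 highest of the 6 values belonged to KO 2 and WT 1 in 7 of the 9 genes, all but Cpa1 and Reg1, beside a share of 5.21% among all genes tested. The same pair was highest in 6 of 8 general epithelial and 7 of 10 endocrine markers. The pattern was thus not particular to acinar genes. The summed value of the 7 enzymes and secreted proteins was 515, 879 and 449 in KO 1, KO 2 and KO 3, against 727, 442 and 526 in WT 1, WT 2 and WT 3. The KO libraries averaged 614 ± 232 and the WT libraries 565 ± 146 (SD, n = 3 each), so the spread within a genotype exceeded the difference. In such bulk samples, fewer acinar cells and less RNA per cell cannot be told apart.

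Cpa1 took only a small part in that contrast. The 6 other enzymes and secreted proteins summed to 0.813, 1.89 and 1.13 times Cpa1 in KO 1, KO 2 and KO 3, against 2.02, 1.28 and 0.927 times in WT 1, WT 2 and WT 3. WT 1 stood at 1.03 times the mean of the other WT libraries in Cpa1, at 2.06 times in Clps and at 2.43 times in Pnliprp1. KO 2 stood at 1.23 times the mean of the other KO libraries in Cpa1, at 2.19 times in Cel and Clps and at 2.39 times in Pnliprp1. The tip-cell enzyme thus differed less between libraries than the other enzymes, apart from Reg1 in KO 2, at 1.10 times.

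Some marker lists of other cells were also highest in these libraries and others were not. The summed value of 8 general epithelial markers, led by Cldn6 and Cdh1, was 384, 481 and 313 in KO 1, KO 2 and KO 3, against 437, 369 and 426 in WT 1, WT 2 and WT 3. KO 2 was thus 1.38 times the mean of the other KO libraries and WT 1 was 1.10 times that of the other WT libraries, smaller ratios than those of most enzymes. Relative to these markers, the enzyme sum was 1.34, 1.83 and 1.43 in the KO libraries, against 1.67, 1.20 and 1.23 in the WT libraries, so KO 2 and WT 1 were still highest. The 10 endocrine markers, led by Gcg and Chgb, summed to 303 to 552 in KO and 413 to 553 in WT libraries. They were again highest in KO 2 and WT 1, at 1.63 times for KO 2 and 1.28 times for WT 1. The 8 mesenchymal markers summed to 536 to 579 in KO and 523 to 556 in WT libraries, at 0.961 times for KO 2 and 0.979 times for WT 1. The 9 markers of pancreas identity summed to 111 to 171 in KO and 148 to 155 in WT libraries, at 1.44 times for KO 2 and 0.973 times for WT 1. The 8 duct and trunk markers stood at 1.27 times for KO 2 and 0.91 times for WT 1, the lowest WT library. All markers of these 5 lists lay above the floor in every library. Their part in the acinar values was not tested.

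Outside the 9 genes, 47 further acinar genes were found of 50 listed. Of these, 24 reached the filter, a mean value of at least 1. After adjustment 0 of 24 passed limma in either direction, beside 0.0144% of all genes tested. At an unadjusted p of 0.05 in limma 1 passed (Ptf1a, lower in KO), beside 10.3% of all genes tested, 4.36% as lower in KO. Their log2 changes were above 0 in 13 and below 0 in 11, with a median of 0.024. The groups were apart in 2 of the 24, Dnase1 above and Xbp1 below in KO, where 16.4% of all genes tested were apart. KO 2 and WT 1 held the 2 highest values in 12 of the 24, beside 5.21% of all genes tested. They did so in 9 of the 10 among them that encode secreted products, the exception being Dnase1.

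Of 14 other proteases, 5 reached the filter. Prss2, a trypsinogen, had values of 5.58, 23 and 12 in KO 1, KO 2 and KO 3, against 25.7, 6.87 and 5.02 in WT 1, WT 2 and WT 3. KO 2 and WT 1 were far above the other libraries of their genotype. The 6 trypsin genes summed to 11.9, 43.3 and 19.4 in the KO libraries, against 44.0, 12.5 and 10.6 in the WT libraries, so WT 1 was 3.82 times the mean of the other WT libraries. Try5, another trypsin gene, was 2.52 to 7.62 in KO and 2.64 to 7.36 in WT libraries. Trypsin genes share sequence (53.9% of the 36-base words of Try5 also occur in Try4), so reads may be split between them.

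The 9 proteases under the filter had means of 0.0266 to 0.659. They include Cpb1, Ctrc, Ctrl, Cela2a, Cela3a and Cela3b, which encode abundant enzymes of the adult gland and are named here after their values were seen. Cpb1 was 0.252, 0.593 and 0.18 in KO 1, KO 2 and KO 3, against 0.415, 0.16 and 0.256 in WT 1, WT 2 and WT 3. Cela3b was 0.219, 0.669 and 0.153 in the KO libraries, against 0.162, 0.0776 and 0.22 in the WT libraries. In both, KO 2 was the highest library. The depth is unknown, so no limit of detection can be given for values this low. Ctrb1 and Cela1 were thus the chymotrypsin and elastase genes that passed the filter at E13.5, and the others listed did not.

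Enzymes of lipid, starch and nucleic acid digestion were lower than Clps, Cel and Pnliprp1. Amy2b and Amy2a5, the pancreatic amylases, were 4.72 to 8.61 and 2.66 to 8.06 in KO libraries, against 2.9 to 9.5 and 2.68 to 9.93 in WT libraries, with KO 2 and WT 1 highest in both genes. These genes share sequence (63.4% of the 36-base words of Amy2a5 and 54.5% of those of Amy2b occur in other genes), so their single values are uncertain. Dnase1, a nuclease, averaged 1.94 ± 0.155 in KO and 1.63 ± 0.0146 in WT libraries (SD, n = 3 each), with all KO values above all WT values, and 18.1% of its exonic bases overlap exons on the other strand. The lipase gene Pnlip, named after its values were seen, was 0.0384 to 0.0791 in KO and 0.0369 to 0.0826 in WT libraries, while its cofactor Clps was among the highest genes.

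Of the 8 secreted proteins other than enzymes, 2 passed the filter, Serpini2 and Spink1, and both had their highest values in KO 2 and WT 1. Serpini2, a serine protease inhibitor, had values of 7.15, 22.2 and 9.82 in KO 1, KO 2 and KO 3, against 26.0, 16.8 and 18.6 in WT 1, WT 2 and WT 3, a log2 change of -0.74 with SE 0.36 that missed the threshold in limma (adjusted p 0.473). Spink1, a trypsin inhibitor, was 1.77 to 8.04 in KO and 3.30 to 9.67 in WT libraries. Sycn, a protein of zymogen granules, was under the filter at 0.466 to 1.31 and 0.226 to 0.89. Of the 8 genes in this group, 3 were at the floor in at least 1 library.

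The secretory machinery genes of highest level varied less than most enzymes. Among those under the filter, the highest value was 3.46 times the lowest in Pdia2, 3.01 times in Erp27 and 1.57 times in Chrm3. Cckar, the cholecystokinin receptor of acinar cells, had values of 55.7, 74.1 and 47.8 in KO 1, KO 2 and KO 3, against 61.5, 51.2 and 60.7 in WT 1, WT 2 and WT 3. Nupr1, a stress-induced nuclear protein, was 11.2 to 20.9 in KO and 10.5 to 18.7 in WT libraries. Rab3d, a GTPase of secretory granules, was 12.3 to 16.6 in KO and 10.2 to 12.8 in WT libraries. KO 2 was the highest KO library in all 5 tested genes of this group and WT 1 the highest WT library in 4, beside the same 45.6% and 29.8% of all genes tested.

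**Figure D3:**
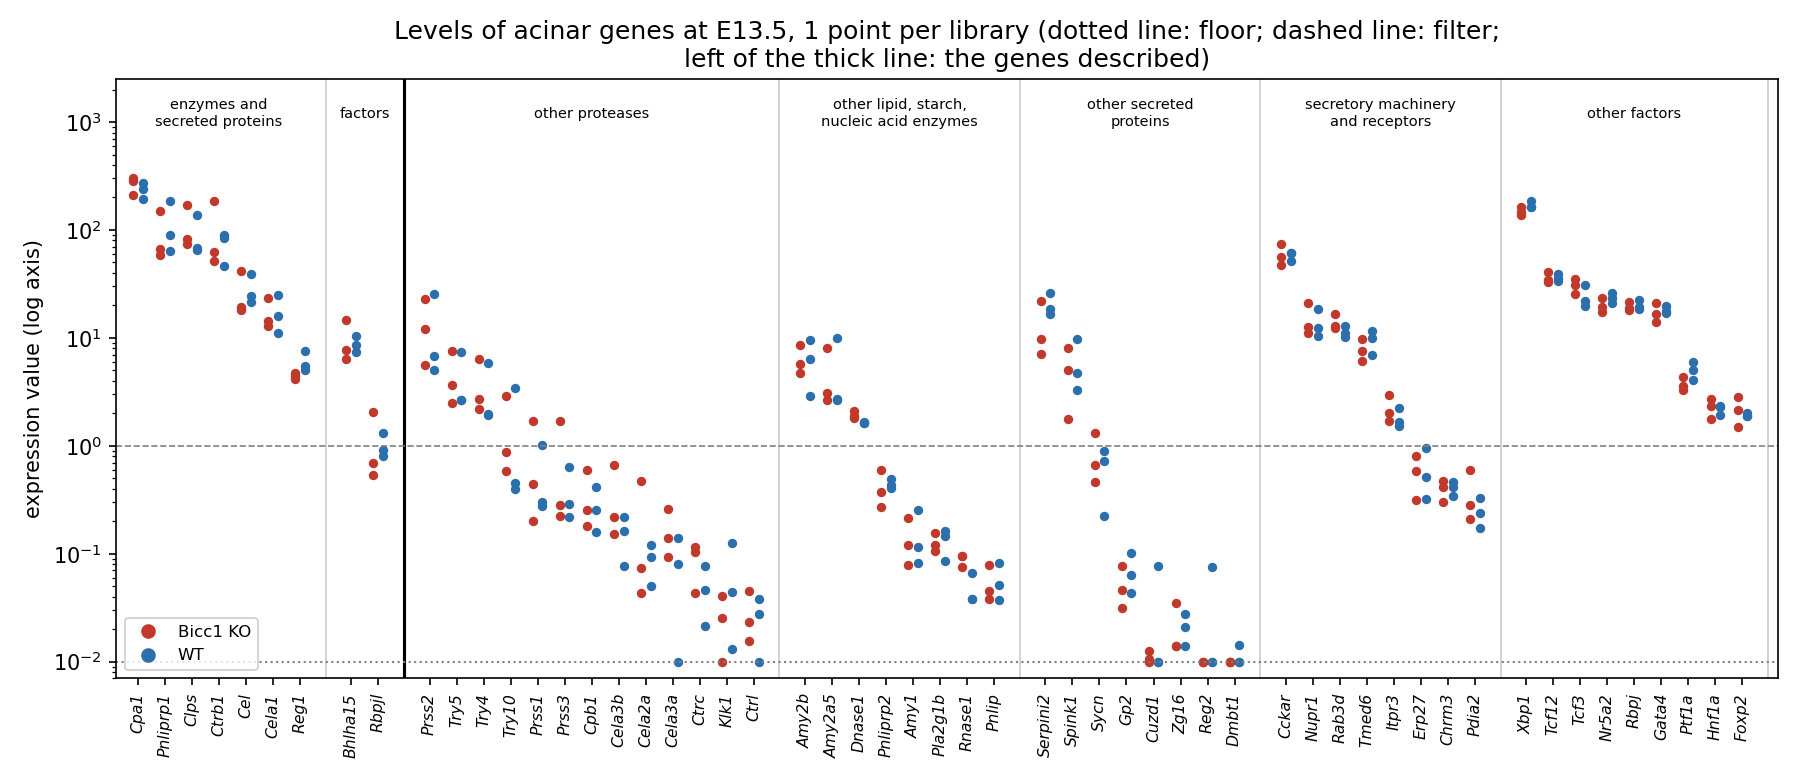
Expression value (log axis, unit not stated) of the 9 acinar genes, left of the thick line, and of 46 of the 47 other acinar genes, with 1 point per KO (red) or WT (blue) library, the floor of 0.01 dotted and the filter value of 1 dashed. Cpa1, Pnliprp1, Clps and Ctrb1 are the highest enzymes plotted, and 23 of the other genes have a mean under the filter.

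The other components of the PTF1 complex varied less between libraries than Rbpjl. Rbpjl was also the lowest of them, with a mean of 1.05, and the depth is unknown. Its wider spread can therefore not be separated from its low level. Ptf1a had values of 3.59, 4.36 and 3.30 in KO 1, KO 2 and KO 3, against 5.94, 5.07 and 4.04 in WT 1, WT 2 and WT 3. KO 2 and WT 1 were each the highest library of their genotype, at 1.26 and 1.31 times the mean of the others. The groups overlapped, with a log2 change of -0.33 (SE 0.137, 95% interval -0.66 to -0.01) and, in limma, an adjusted p of 0.469. The antisense gene Ptf1aos covers 40.4% of the exonic bases of Ptf1a in GRCm38, and reads of the pair cannot be told apart here. The log2 difference of Ptf1a was -0.02 within the first side of the component, with WT 3 as the WT library, and -0.59 within the second.

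Rbpj, the general partner, which the naming rule does not cover, was 19.0, 18.1 and 21.6 in KO 1, KO 2 and KO 3, against 19.3, 22.4 and 18.7 in WT 1, WT 2 and WT 3. Rbpjl amounted to 0.0362, 0.113 and 0.025 of Rbpj in the KO libraries, against 0.0677, 0.0359 and 0.0492 in the WT libraries. These are ratios of bulk RNA over all cells, so the share of the 2 partners within acinar cells was not measured. A processed copy of Rbpj shares 23.8% of its 36-base words, and its reads may be counted there or here. Tcf12 was 32.9 to 40.7 in KO and 33.4 to 39.3 in WT libraries. Tcf3 was 25.3 to 35.1 in KO and 19.9 to 31.1 in WT libraries, with KO 2 highest and WT 1 lowest. Xbp1, a factor of the secretory pathway in many cell types, was 145.5, 163.2 and 137.4 in the KO libraries, against 183.6, 163.5 and 165.0 in the WT libraries, apart by a small margin and with an adjusted p of 0.469 in limma.

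**Figure D4:**
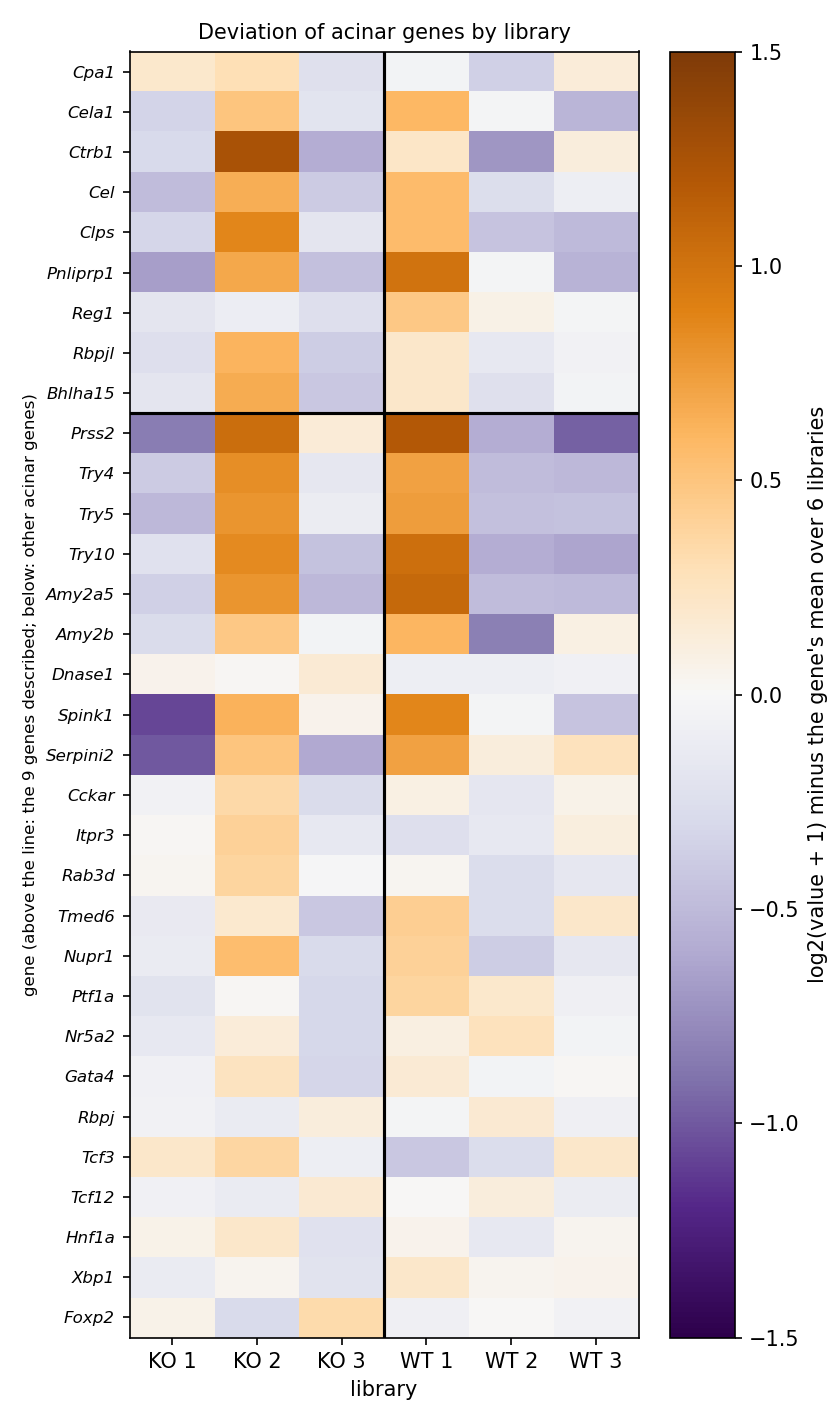
Log2(value + 1) minus the mean of the gene over the 6 libraries, for the 9 acinar genes above the line and 23 of the 24 other acinar genes that passed the filter below it. Columns are libraries, KO left of WT. The columns of KO 2 and WT 1 are orange through most enzymes, except Dnase1, Cpa1 in WT 1 and Reg1 in KO 2, and pale through Rbpj and Tcf12.

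Promoters of the genes are shown because PTF1 binds an E-box next to an RBPJ box in promoters of enzyme genes. RefSeq promoters of build GRCm38.p6 were given for 8 of the 9 genes, each from 250 bases before to 50 after the start. The motifs searched were the E-box CANNTG, which reads the same on both strands, and the RBPJ box TGGGAA, on either strand (TTCCCA on the other), with a pair counted where they did not overlap and lay at most 30 bases apart. Such a pair was found in 6 of 8 promoters (Cpa1, Ctrb1, Cel, Pnliprp1, Reg1 and Rbpjl), in 7 of 43 promoters of the other acinar genes and in 6.97% of all 32851 promoters. An E-box alone was found in 72.3% and an RBPJ box alone or with others in 25.6% of all promoters. Ctrb1 and Rbpjl, which were high in KO 2, and Cpa1 and Reg1, which did not share the pattern of the others, are printed from 250 bases upstream to the base before the start, with the paired motifs in capitals.
Ctrb1, chr8:111691011-111691260, minus strand: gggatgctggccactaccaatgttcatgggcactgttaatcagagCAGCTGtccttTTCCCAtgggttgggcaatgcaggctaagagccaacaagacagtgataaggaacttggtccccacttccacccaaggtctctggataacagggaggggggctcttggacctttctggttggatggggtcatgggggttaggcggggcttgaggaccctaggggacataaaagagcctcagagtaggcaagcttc
Rbpjl, chr2:164402944-164403193, plus strand: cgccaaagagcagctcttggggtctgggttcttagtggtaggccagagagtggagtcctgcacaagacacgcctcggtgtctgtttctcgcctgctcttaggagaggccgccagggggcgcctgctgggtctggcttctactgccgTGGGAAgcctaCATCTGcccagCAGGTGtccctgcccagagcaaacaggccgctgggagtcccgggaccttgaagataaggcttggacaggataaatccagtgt
Cpa1, chr6:30638968-30639217, plus strand: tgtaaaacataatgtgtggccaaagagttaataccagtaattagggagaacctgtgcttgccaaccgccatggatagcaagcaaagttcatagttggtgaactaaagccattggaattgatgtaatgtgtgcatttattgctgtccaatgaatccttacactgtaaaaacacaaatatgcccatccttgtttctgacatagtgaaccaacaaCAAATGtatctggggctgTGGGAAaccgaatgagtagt
Reg1, chr6:78425733-78425982, plus strand: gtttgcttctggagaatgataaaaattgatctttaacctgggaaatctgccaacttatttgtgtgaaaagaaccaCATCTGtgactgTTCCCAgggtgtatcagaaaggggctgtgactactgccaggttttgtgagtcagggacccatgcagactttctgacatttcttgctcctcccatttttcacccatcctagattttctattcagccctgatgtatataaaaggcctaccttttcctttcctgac

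The bases between the nearest E-box and RBPJ box numbered 5 in Ctrb1, 5 in Rbpjl, 6 in Reg1, 12 in Cpa1, 16 in Cel and 22 in Pnliprp1. The promoters of Cela1 and Bhlha15 held E-boxes but not TGGGAA on either strand in this window. These reference sequences are not specific to a library, and a relation of the motifs to the library values was not tested. A match of letters is a description of the sequence, and binding was not measured.

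Outside the acinar lists, the genes whose pattern over the 6 libraries was most like the mean of the 9 were Aqp4, Chrnb1, Pcsk1, Rnf121 and Clcc1. Pearson's r with the mean standardised log2 value was 0.983 for Aqp4, 0.981 for Chrnb1 and 0.977 for Pcsk1, and 0.976 for Rnf121 and Clcc1, over 6 libraries and as the highest of 13878 genes searched. Pcsk1, a prohormone convertase of endocrine cells, was 2.58, 4.06 and 2.63 in KO 1, KO 2 and KO 3, against 3.51, 2.80 and 2.81 in WT 1, WT 2 and WT 3. These likenesses rest mainly on the height of KO 2 and WT 1 and describe these libraries only.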

How the data were processed

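RNA from E13.5 dorsal pancreata was made into TruSeq RNA v2 libraries, per the labels' protocols. Per the submitters' processing notes, CASAVA 1.82, Bowtie 0.12.7 and mm9 were used. The annotation, the counting and the scaling are not stated. Each deposited file lists 1 signal value for every gene, never under 0.01, with no unit in its header. It resembles a per-length density, counts could not be derived, and no counting interval is given. Symbols were found for 22624 of 24389 identifiers. The GRCm38 annotation gave names, chromosomes, exon overlap, shared 36-base words and GC content, and printed coordinates are of GRCm38.p6, not of the mm9 build behind the values.

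Values were used unscaled. Genes with a mean of at least 1 (13911) were put on the log2(value + 1) scale and tested in R 4.3.3 by limma 3.58.1 (mean-variance trend, two-sided, group only) and Benjamini-Hochberg adjustment over all of them, at 0.05. The fit was tested on simulated data with independent noise for each gene and library. Those data lack the first principal component seen here, so they do not show how the fit behaves under it. Alternatives were 3 scalings (totals, upper quartiles, median ratios), a stricter filter or none, a pseudocount of 0.1, the replicate number as a block, a GC correction (loess, span 0.3), both together, a term for the side on the first principal component, and each library left out. Leaving out KO 2 and WT 1 together was added after the data were seen. A test for counts, planned in case the files held counts, was not run. The members and lists were chosen with earlier results of these data known. The rule named the 9 genes, Bicc1, Ptf1a, the top 3 by level of each group of other acinar genes, those at an unadjusted p of 0.05 and the 5 most alike in pattern. One gene that the rule named is not reported here and is left out of the figures, but stays in the counts. Marker lists not described in the text passed 0 genes in limma, beside 0.0144% of all genes tested. Endothelial markers summed to 87.7 to 111 in KO and 76.8 to 79.5 in WT libraries, and macrophage markers to 38.4 to 42.8 and 29.6 to 38.2. Neutrophil and mast cell markers summed to 5.05 to 11.6 in KO and 12.4 to 38.7 in WT, though Cma1 among them was higher in KO. Sums of the erythroid, liver, stomach and intestine, and spleen lists overlapped. Their part in the acinar values was not tested. Figures were made with Python 3.11.15 and matplotlib 3.10.9.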

Additional observations from a re-analysis of the deposited data

How the results depend on the processing

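In every one of 17 alternatives 0 of the 9 genes and 0 of the other acinar genes passed limma at an adjusted p of 0.05, with 0.148 the lowest adjusted p of any of the 9 (Reg1, without WT 3). Bicc1 itself missed that threshold in limma with the replicate block alone (adjusted p 0.088) and without both KO 2 and WT 1 (0.0978). The lack of acinar genes past the threshold is therefore uninformative in those settings. Cpa1 stayed above 0 and Reg1 and Ptf1a below 0 in all 17. Of 152 values of the 9 genes under alternatives, 22 had the opposite sign. Bhlha15 was -0.12 after GC correction, with or without the block, and -0.062 with the side as a term, and Cela1 was 0.071 with the side as a term. Without both KO 2 and WT 1, chosen after seeing the data, Cela1 was 0.017, Ctrb1 -0.14 and Bhlha15 -0.16. Leaving out 1 library at a time, the log2 change ranged from -0.29 to 0.27 for Cela1, -0.32 to 0.6 for Ctrb1, -0.51 to 0.1 for Cel, -0.12 to 0.6 for Clps, -0.7 to 0.14 for Pnliprp1, -0.31 to 0.18 for Rbpjl and -0.28 to 0.26 for Bhlha15. Rbpjl was under the stricter filter and has no value there. The count of all genes past the threshold was 2, against 1 with no filter, 4 after GC correction, 1 after GC correction with the replicate block, 0 with the replicate block alone and 0 without both KO 2 and WT 1, and 1 to 7 with 1 library left out. Same-numbered libraries did not deviate together (correlations of deviations -0.216, -0.398 and -0.638). The deviations also carry the first component (0.418 for KO 2 with WT 3 and 0.568 for KO 3 with WT 2). Whether the numbers pair the samples can therefore not be decided from them. The unknown depth limits what can be said of genes near the floor. The causes of these shifts were not tested.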
